A study of Mus musculus with 8 samples.

Results

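Solute carriers are the membrane transporters whose genes are named Slc followed by a family number. Every gene symbol of that form was taken from a table of 13341 symbols, and a member had to reach a level of 10 in at least 2 of the 8 libraries. Of 246 such symbols, 192 passed, and 54 did not, 2 of which had 0 reads in every library. The members were then split by their spleen values alone. On that split 160 carriers were seen in spleen, and 32 had a level under 10 in all 4 spleen libraries. A level is a gene's read count after the authors' normalisation of each library, so it can be compared between libraries but not between genes of different length. Members were chosen by their measured levels and divided by their spleen values, so the difference between organs in the 32 carriers is described here and not tested.

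The libraries came from T cells with high CD44, a marker of antigen experience, sorted from 14-week-old MRL/lpr mice. MRL/lpr is a lupus-prone strain whose lpr mutation disrupts the death receptor Fas, and all groups share that strain, so no healthy control group was compared. There were 4 groups, CD4+ or CD8+ T cells of kidney or spleen, with 2 libraries each, made with a kit for very small RNA inputs. The labels do not say that replicates came from separate mice, so each p-value measures only the spread between these libraries.

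Plasma membrane carriers bring glucose, amino acids, nucleosides and ions into T cells, and activated T cells are known to depend on hexose and large neutral amino acid carriers. Carriers of the Slc25 family exchange metabolites across the inner mitochondrial membrane, and Slc35 carriers move nucleotide sugars into the Golgi and endoplasmic reticulum. In the kidney, the proximal tubule reclaims phosphate, glucose, sulfate and amino acids from the filtrate and secretes organic ions through a set of carriers largely absent from blood cells.

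The symbol rule reached some genes that are not transporters. Slc9a3r1 is a scaffold protein, Slc4a1ap and Slc7a6os are named for a neighbouring or interacting carrier, and Slc2a4rg-ps is a pseudogene, which leaves 4 of the 192 members outside the label. The glucose transporter Slc2a1, given as the marker of the group, had reads in all 8 libraries. Of the 192 members, 183 had a position on the mm9 build, and 25 overlapped another listed gene, whose reads could not be separated from theirs because strand was not given.

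Depth ran from 7477544 to 11169003 recovered reads, and 1 read was worth a level of 0.554 to 1.04, so a level of 10 rested on few reads. Summed T cell markers ranged from 95581 to 147216, and Cd4 and Cd8a followed the sort. The kidney CD4+ libraries differed most from each other. Replicate 2 had Cd3e at 637 and Lck at 2813, against 4225 or more and 9660 or more in every other library. Among the listed T cell markers, only Cd3g, Cd3d and Cd2 were higher in replicate 2, at 48406, 26729 and 32997, against 24538, 10077 and 24590 in replicate 1. The sum of all listed T cell markers was 97237 in replicate 1 and 115378 in replicate 2. Over the 192 members, Pearson's r of log2(level + 1) between replicates was 0.612 for CD4+ and 0.774 for CD8+ T cells of kidney, and for those of spleen 0.94 and 0.956. These correlations are across genes, which are not independent replicates. Replicate differences in log2(level + 1) had an SD of 2.2, 1.79, 0.974 and 0.814 in the same order, so carrier levels in kidney carried a larger error than those in spleen.

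The promoters of the carriers were searched for short motifs, since factors of the HNF families drive many tubule genes and the factor Myc, which recognises an E-box, acts on metabolic genes in dividing T cells. The 250 bases before each RefSeq start (GRCm38.p6) were read on both strands for 22 of the 32 carriers low in spleen and 117 of the 160 seen in spleen. The HNF4 letters CAAAGTCCA were found in 1 of 22 (4.55%), in 0 of 117 and in 0.451% of 27025 genes. The HNF1 letters, GTTAAT followed by any base (N) and ATT, were found in neither class and in 0.44% of genes. The E-box CACGTG was found in 3 of 22 (13.6%) and in 18 of 117 (15.4%), against 6.86% of genes. The 27025 genes were not filtered by level as the carriers were, so these shares are not a like background. The match to the HNF4 letters lay in the promoter of Slc3a1. Examples of the E-boxes lay in those of the lactate carrier Slc16a1, the nucleoside carrier Slc29a1 and the tubule dicarboxylate carrier Slc13a3. The lines below show these windows, each 5′ to 3′ on its gene's strand, with the motif in capitals.
Slc3a1: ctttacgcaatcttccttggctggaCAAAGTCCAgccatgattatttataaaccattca
Slc16a1: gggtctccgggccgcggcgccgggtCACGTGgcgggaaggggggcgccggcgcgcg
Slc29a1: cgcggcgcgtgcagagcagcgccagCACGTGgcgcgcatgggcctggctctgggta
Slc13a3: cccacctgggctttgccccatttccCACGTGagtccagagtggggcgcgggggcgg

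Each distance below is counted from the first base of the motif, not of the window. The Slc3a1 window is chr17:85028283-85028341 on the plus strand, 39 bases before the start. That of Slc16a1 is chr3:104638439-104638494 on the plus strand, 200 bases before the start, and that of Slc29a1 is chr17:45595291-45595346 on the minus strand, 75 bases before it. The Slc13a3 window is chr2:165473321-165473376 on the minus strand, 154 bases before the start. A match describes letters only. The windows with an E-box belong to genes of both classes, and the promoters were not assayed.

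Carriers low in spleen formed a larger share of the solute carriers than of all genes. They made up 16.7% of the 192 members, whereas 632 of the 10845 genes that passed the same filter (5.83%) were under 10 in all spleen libraries. The opposite case was rarer, with 1 member (0.521%) under 10 in all kidney libraries against 183 genes (1.69%). Of the 32 carriers, 22 had 0 reads in the 4 spleen libraries together. Families divided unevenly between the classes. The organic ion carriers of family Slc22 had 6 of 8 members low in spleen and the sulfate and dicarboxylate family Slc13 had both of its 2 members there, whereas 34 of 35 members of Slc25 and all 20 of Slc35 were seen in spleen.

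**Figure D1:**
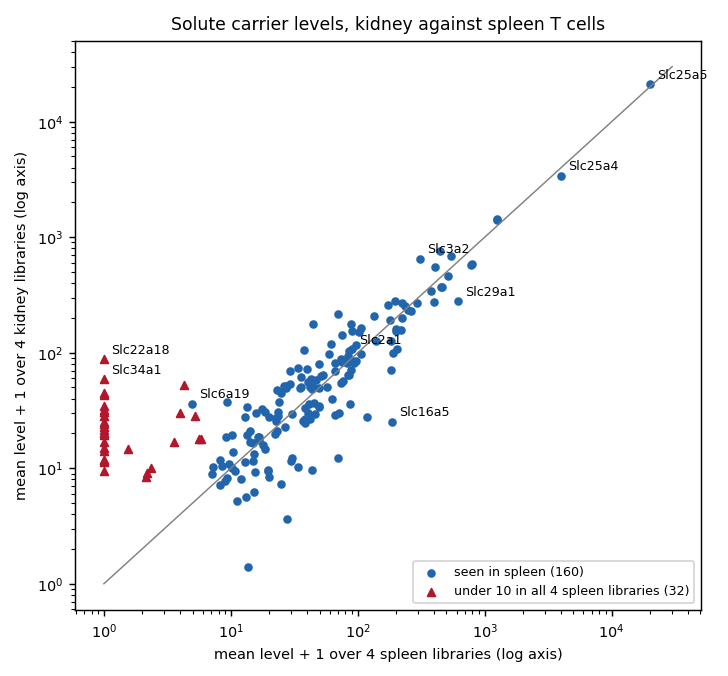
Mean level + 1 over the 4 spleen libraries (x, log axis) against the 4 kidney libraries (y, log axis) for the 192 members, with the line of equality. The 32 carriers under 10 in spleen (triangles) lie at the left edge, and most of the 160 seen in spleen (circles) follow the line up to Slc25a5.

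A list of 39 carriers of the proximal tubule was drawn up for the comparison, and 33 of them were in the table. Of these, 21 were members, 19 of them in the class low in spleen. The other two were Slc6a19, which sat at the edge of the threshold, and Slc7a7, a basolateral carrier of cationic amino acids that also works in macrophages. The list of distal nephron carriers had 2 members, and Slc12a1, the salt carrier of the thick ascending limb that loop diuretics block, was the one low in spleen. Per kilobase of transcript, mean levels of the low class over the 4 kidney libraries ran from 1.44 for Slc22a23 to 55.8 for Slc22a18.

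Slc22a18, an organic cation carrier of an imprinted cluster (mm9 chr7:150659626-150685239, plus strand), had the highest mean of the class. Its levels were 13.4 and 149 in kidney CD4+ and 102 and 82.5 in kidney CD8+ T cells, with 0 reads in spleen. Against a floor of 3 reads over both spleen libraries, the lower kidney library of each pair was at least 13.2-fold higher in CD4+ and at least 69.6-fold higher in CD8+ T cells. Per kilobase of transcript, its mean kidney level was also the highest, ahead of Slc7a9 at 21.0, Slc34a1 at 18.9, Slc25a15 at 14.9, Slc13a1 at 12.5 and Slc17a1 at 11.5.

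Carriers of phosphate, sulfate and bicarbonate formed the first group of the class. Slc34a1, the sodium-phosphate cotransporter of the proximal tubule brush border (mm9 chr13:55501009-55516056, plus strand), was at 34.5 and 71.8 in kidney CD4+ and at 14.4 and 112 in kidney CD8+ T cells. Slc4a4, the basolateral sodium bicarbonate cotransporter, was at 47.9 and 37.5 in kidney CD4+ and at 19.5 and 64.8 in kidney CD8+ T cells. Slc13a1, the sodium sulfate cotransporter, was at 36.7 and 30.2 and at 17.8 and 40.1. All 3 had 0 spleen reads and passed 10 in each of the 4 kidney libraries. In kidney CD8+ T cells replicate 2 was the higher one for each of them. Slc26a1, a sulfate anion exchanger, was at 0 and 25 and at 5.94 and 10.8, so it passed 10 only in replicate 2 of each cell type.

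Amino acid carriers of the brush border were less even between libraries. Slc7a9 (mm9 chr7:36234056-36251055, plus strand) and Slc3a1 (mm9 chr17:85427687-85463583, plus strand) form the cystine and dibasic amino acid exchanger that is defective in cystinuria. Slc7a9 was at 90.9 and 1.04 in kidney CD4+ and at 27.2 and 56.3 in kidney CD8+ T cells, the second value of 1.04 being a single read. Slc3a1 was at 56.4 and 18.7 in kidney CD4+ and at 0 and 21.6 in kidney CD8+ T cells. In kidney CD4+ T cells both partners were higher in replicate 1. Slc6a18, a neutral amino acid carrier, went the other way, at 2.11 and 77.0 in kidney CD4+ and 0 and 30.8 in kidney CD8+ T cells. Slc1a1, a glutamate carrier, was at 0 and 27.1 and at 20.4 and 7.71. Slc3a1 overlaps Prepl on the opposite strand.

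Organic ion carriers, which secrete drugs and metabolites, included a neighbouring pair on chromosome 19. Slc22a8 (mm9 chr19:8665744-8686324) was at 6.34 and 44.7 in kidney CD4+ and at 33.1 and 50.1 in kidney CD8+ T cells. Its neighbour Slc22a6 (mm9 chr19:8692486-8702789), also an organic anion transporter, was at 27.5 and 4.16 in kidney CD4+ and at 28.9 and 13.1 in kidney CD8+ T cells. In kidney CD4+ T cells the pair had its higher value in different replicates. Slc47a1, which extrudes organic cations at the apical membrane, was at 3.52 and 16.6 and at 1.70 and 12.3. Slc17a1 and Slc17a3, neighbouring urate and phosphate carriers on chromosome 13, were at 26.1 and 27.1 and at 37.4 and 21.9 in kidney CD4+ T cells. In kidney CD8+ T cells Slc17a1 was at 5.94 and 33.9, and Slc17a3 was at 0 and 27.8.

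Among carriers of metabolic fuels, Slc27a2, which takes up very long chain fatty acids, was at 8.46 and 19.8 in kidney CD4+ and at 29.7 and 60.1 in kidney CD8+ T cells. Slc13a3, a dicarboxylate cotransporter, was at 65.5 and 29.1 and at 0 and 21.6, with 4.99 and 6.90 in spleen CD4+ T cells. Slc5a2, the tubular glucose cotransporter that gliflozin drugs block, was at 43.0 and 0 and at 0 and 12.3. Slc5a12, a lactate cotransporter, was at 0 and 58.3 and at 0 and 17.7. Slc5a2 and Slc5a12 thus each had reads in only 2 of the 4 kidney libraries. Slc6a8, the creatine carrier, was at 14.8 and 22.9 and at 0 and 26.2.

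Some carriers of the class are not tubule-list genes, and these were named after their values were seen. Slc25a15, the mitochondrial ornithine carrier of the urea cycle, was at 49.3 and 57.2 in kidney CD4+ and at 74.7 and 24.7 in kidney CD8+ T cells. In spleen it was at 2.22 and 0 in CD4+ and at 6.06 and 4.77 in CD8+ T cells, so it was the only Slc25 member in the class and had reads in 3 of 4 spleen libraries. Slc16a10, an aromatic amino acid carrier, was at 31.0 and 10.4 and at 42.4 and 24.7 in kidney. Slc38a8 had 0 reads in both kidney CD4+ libraries and 29.7 and 33.9 in kidney CD8+ T cells. Its only spleen reads were in CD8+ T cells, at 7.41 and 2.86. Slc27a6 had the same layout in kidney, with 0 in both CD4+ libraries and 14.4 and 15.4 in CD8+ T cells. Both could pass the filter only through the kidney CD8+ libraries, so the gap between cell types is part of how they were chosen.

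**Figure D2:**
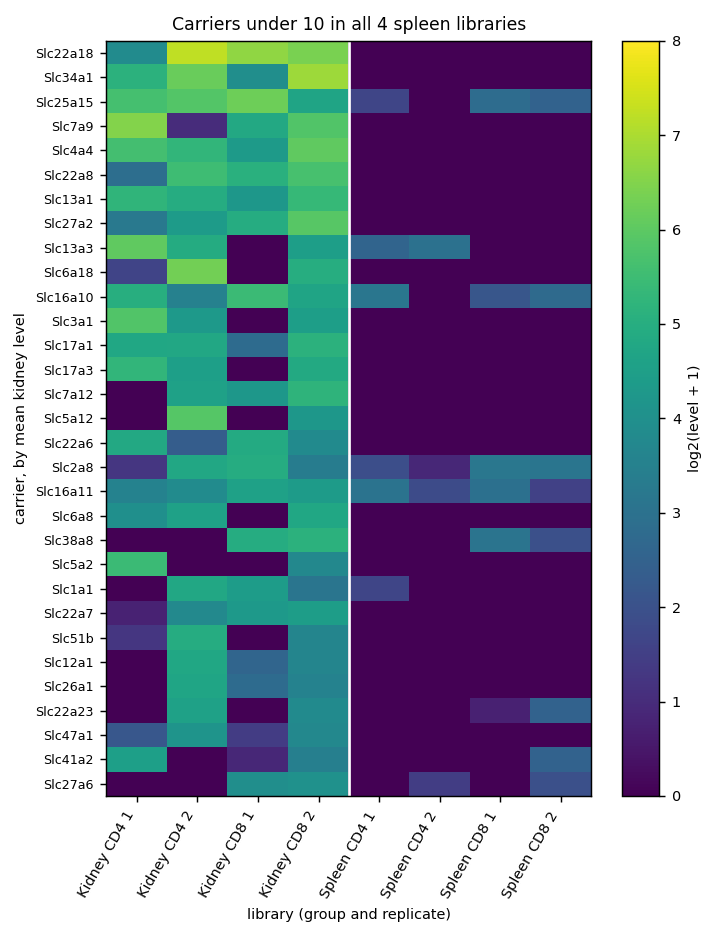
Colour gives log2(level + 1) of the carriers under 10 in all 4 spleen libraries (1 is not shown), ordered by mean kidney level, in each of the 8 libraries. Dark cells inside the 4 kidney columns mark carriers at or near 0 in that library, which differ between replicates, as for Slc7a9 and Slc5a12.

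The 32 carriers were not present together in every kidney library. A level of 10 was reached by 17 of them in replicate 1 and 25 in replicate 2 of kidney CD4+ T cells, and by 18 and 30 in the kidney CD8+ replicates. All 4 kidney libraries reached it for 7 carriers, 3 libraries for 12 and 2 libraries for 13. Summed over the class, levels were 673 and 912 in kidney CD4+ and 575 and 952 in kidney CD8+ T cells, against 12.1 to 35.3 in spleen. The 22 with 0 spleen reads summed to 493, 724, 340 and 772 in the kidney libraries in that order. The other 10 summed to 180, 187, 235 and 180, which was nearly flat.

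Markers of the proximal tubule that are not carriers, such as Miox and Fbp1, were summed over the same libraries. Of 20 listed, 19 were in the table, and their sum was 12071 and 25406 in kidney CD4+ and 8413 and 31785 in kidney CD8+ T cells, against 8.63 to 201 in spleen. Most of the spleen sum in CD8+ T cells was Ggt1, at 123 and 191, and 3 or 4 of the 19 markers had a read in each spleen library. Miox and Fbp1 were at 0 reads in all of them. The kidney libraries fell in the same order for the tubule markers, for the 32 carriers and for the 22 with 0 spleen reads, whereas the 10 with spleen reads did not follow that order. Single markers did not all follow it, since Keg1 (1207 and 1044) and Pdzk1 (466 and 357) were higher in replicate 1 of kidney CD4+ T cells. The distal nephron markers, 7 of 10 in the table, gave another order, with sums of 1033 and 9664 in kidney CD4+ and 1778 and 4675 in kidney CD8+ T cells. The carriers varied less than the markers, with the highest library 1.65 times the lowest for the 32 carriers, 2.27 times for the 22, and 3.78 times for the markers. As a share of the marker sum, the 32 carriers stood at 5.58%, 3.59%, 6.84% and 3.0%. In bulk libraries, fewer cells of a type and less RNA per cell cannot be told apart, and the part that tubule RNA has in the carrier levels was not tested.

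**Figure D3:**
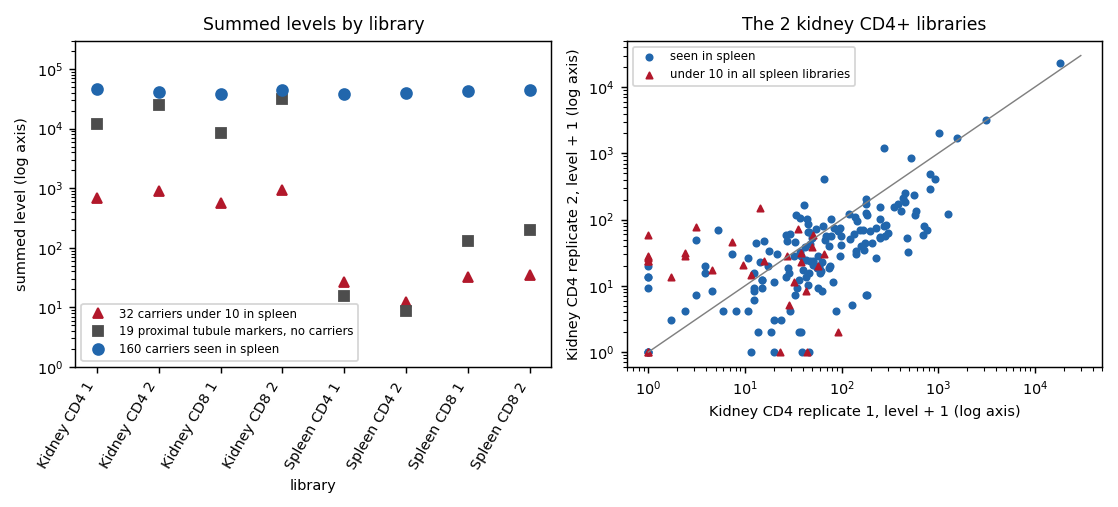
Left, summed levels (log axis) of the 32 carriers low in spleen, of 19 tubule markers and of the 160 carriers seen in spleen, by library. Right, level + 1 of each member in the kidney CD4+ replicates (both axes log), where Pearson's r on the log2 scale was 0.612. The sums of carriers seen in spleen stay between 38021 and 45764 and the 32 carriers, which were chosen for low spleen values, sum to 575 to 952 in kidney and 12.1 to 35.3 in spleen.

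The threshold itself separated carriers with similar values. Just inside it, Slc2a8, an intracellular hexose carrier, had a highest spleen level of 8.08, Slc16a10 had 7.76 and Slc38a8 had 7.41. Just outside it, Slc6a19 had 10.5, Slc35e3 had 11.4 and the lactate exporter Slc16a3 had 12.1. These gaps amount to a few reads.

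Slc6a19, the apical carrier of neutral amino acids in proximal tubule and gut (mm9 chr13:73817193-73842313, minus strand), was the only carrier seen in spleen that passed the test between organs. Its levels were 31.7 and 44.7 in kidney CD4+ and 34.8 and 29.3 in kidney CD8+ T cells, against 0 and 0 in spleen CD4+ and 5.39 and 10.5 in spleen CD8+ T cells. Every kidney library was above every spleen library. Of its spleen levels only 10.5 reached the minimum of 10, so Slc6a19 could pass the filter only through the kidney libraries. The gap between organs is therefore part of how it was chosen, and nothing is read from its call. In CD4+ T cells the lower kidney library of Slc6a19 was at least 31.3-fold higher, against the floor of 3 reads over both spleen libraries. The fitted log2 difference of 5.27 ± 0.83 (SE) had a limma adjusted p of 0.0264. In CD8+ T cells the log2 difference was 1.94, with a limma adjusted p of 0.46. The difference between these organ effects was -3.33 ± 1.18, with a limma adjusted p of 0.999. The CD4+ call was lost without either spleen CD4+ library (adjusted p = 0.181 without replicate 1 and 0.202 without replicate 2) and without either spleen CD8+ library (0.0777 and 0.0828), in limma. It was also lost with edgeR (adjusted p = 0.0639), with the replicate number as a block in limma (0.0504) and in limma on the 4 compared libraries alone (0.19). Over 15 alternatives the adjusted p ran from 1.76e-04 to 0.202.

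Over all 192 members, the organ comparison in CD4+ T cells called 1 carrier higher in kidney and 0 lower at a limma adjusted p under 0.05. That carrier was Slc6a19, which passed the filter only through kidney. Of all tested genes, 0.959% were called (0.802% higher and 0.157% lower). At an unadjusted p under 0.05, 24 members (12.5%) passed, against 9.11% of all genes. Of these, 14 belonged to the class chosen for low spleen values, and carriers seen in spleen gave 10 of 160 (6.25%), below the share of all genes. In CD8+ T cells 3 carriers were called, all higher, with 1.55% of all genes called (1.21% higher and 0.341% lower). Those were Slc22a18, Slc27a2 and Slc4a4, all in the class chosen for low spleen values, so nothing is read from that count. At an unadjusted p 33 members (17.2%) passed in CD8+ T cells, against 10.6% of all genes. Here 16 were from the class chosen for low spleen values, and carriers seen in spleen gave 17 of 160 (10.6%), the same share as all genes. Groups did not overlap for 76 of the 192 members in CD4+ and 95 in CD8+ T cells, where all genes gave 31.9% and 51.1%. Of these members, 21 and 22 belonged to the class chosen for low spleen values, so nothing is read from the counts over all members. Carriers seen in spleen gave 55 of 160 in CD4+ and 73 of 160 in CD8+ T cells.

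These counts moved with the kidney CD4+ libraries, whose spread enters the error that all groups share in the fit. Without replicate 1 of kidney CD4+ T cells, which leaves 1 library in that group, many more carriers were called in the CD4+ comparison. Their share was no larger than that of all genes. Most of the rises belonged to the class chosen for low spleen values, so nothing is read from them. Without replicate 2, 3 carriers and 2.76% of all genes were called, and without replicate 1 of kidney CD8+ T cells 3 and 0.867%. Without any 1 of the 4 spleen libraries the count was 0. In the CD8+ comparison, which does not use the kidney CD4+ libraries except for the spread, leaving out replicate 1 of them gave 17 carriers and 6.8% of all genes, and replicate 2 gave 16 and 6.68%. In each of these settings 11 of the carriers called were from the class chosen for low spleen values. Without replicate 1 of kidney CD8+ T cells 0 were called, without replicate 2 there was 1, and without any 1 of the spleen libraries there were 0. With both kidney CD4+ libraries left out, an alternative chosen after seeing the data, 17 carriers were called, 12 higher and 5 lower, while 6.87% of all genes were called. Of these 17, 11 belonged to the class low in spleen and 6 were seen in spleen.

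Among hexose carriers, Slc2a1, the basal glucose transporter induced when T cells are activated (mm9 chr4:118781316-118809935, plus strand), was at 250 and 51.0 in kidney CD4+, 39.9 and 82.5 in kidney CD8+, 108 and 95.8 in spleen CD4+ and 74.1 and 75.4 in spleen CD8+ T cells. Replicate 1 of kidney CD4+ T cells stood above all other libraries and replicate 2 below all spleen libraries, so the organs overlapped in both cell types. The log2 difference between kidney and spleen was 0.15 ± 0.75 in CD4+ T cells (95% interval -1.55 to 1.85, limma adjusted p = 0.974) and -0.37 in CD8+ T cells (-2.08 to 1.33, limma adjusted p = 0.91). Without replicate 1 of kidney CD4+ T cells the CD4+ value became -0.98, and without replicate 1 of kidney CD8+ T cells the CD8+ value became 0.14. The intervals are wide enough to hold a change of more than 2-fold in either direction. Between cell types, the log2 difference of CD8+ against CD4+ T cells was -0.97 in kidney (limma adjusted p = 0.775), turning to 0.17 without replicate 1 of kidney CD4+ T cells and reaching -2.10 (adjusted p = 0.0382) without replicate 2.

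Slc2a3, the high-affinity glucose transporter of lymphocytes and neurons, was at 352 and 152 in kidney CD4+, 345 and 183 in kidney CD8+, 161 and 227 in spleen CD4+ and 142 and 163 in spleen CD8+ T cells. In CD8+ T cells both kidney libraries were above both spleen libraries, with a log2 difference of 0.72 (limma adjusted p = 0.721). The list of hexose carriers had 5 members among 8 in the table, and 0 passed the test in either direction in either organ comparison.

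Slc3a2 and Slc7a5 form the heterodimer that imports leucine and other large neutral amino acids into activated T cells. Slc3a2, the shared heavy chain (mm9 chr19:8781372-8797859, minus strand), was at 525 and 850 in kidney CD4+, 497 and 731 in kidney CD8+, 313 and 327 in spleen CD4+ and 243 and 353 in spleen CD8+ T cells. All 4 kidney libraries were above all 4 spleen libraries. The log2 difference was 1.06 ± 0.41 in CD4+ T cells (95% interval 0.13 to 1.99, limma adjusted p = 0.435) and 1.04 ± 0.41 in CD8+ T cells (0.11 to 1.97, limma adjusted p = 0.396). With both kidney CD4+ libraries left out, the CD8+ value had a limma adjusted p of 0.0568.

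Slc7a5, the transporting chain, was at 42.3 and 23.9 in kidney CD4+, 83.2 and 53.2 in kidney CD8+, 19.95 and 13.8 in spleen CD4+ and 45.8 and 24.8 in spleen CD8+ T cells. In both cell types the kidney libraries were above the spleen libraries, and the log2 differences of 0.90 in CD4+ and 0.96 in CD8+ T cells had limma adjusted p-values of 0.76 and 0.698. Slc1a5, which carries glutamine and other neutral amino acids, was at 176 and 207 in kidney CD4+, 194 and 342 in kidney CD8+, 309.8 and 322 in spleen CD4+ and 236 and 173 in spleen CD8+ T cells. In CD4+ T cells the spleen libraries were the higher ones (log2 difference -0.72, limma adjusted p = 0.695), and in CD8+ T cells the organs overlapped. Slc38a1, another glutamine carrier, was at 450.4 and 182 in kidney CD4+, 263 and 222 in kidney CD8+, 212 and 190 in spleen CD4+ and 164 and 218 in spleen CD8+ T cells. Of the 9 amino acid uptake carriers, 0 passed in either organ comparison, and the list's median log2 difference was 0.22 in CD4+ and 0.35 in CD8+ T cells, against -0.08 and 0.00 over all genes.

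Among monocarboxylate carriers, the lactate importer and exporter Slc16a1 was at 16.2 and 18.7 in kidney CD4+, 13.6 and 50.9 in kidney CD8+, 30.5 and 19.8 in spleen CD4+ and 32.3 and 60.2 in spleen CD8+ T cells. Slc16a5 (mm9 chr11:115323788-115335712, plus strand) was at 35.2 and 1.04 in kidney CD4+, 11.0 and 50.1 in kidney CD8+, 101 and 88.9 in spleen CD4+ and 282 and 271 in spleen CD8+ T cells. All kidney libraries lay below all spleen libraries for Slc16a5. Its log2 difference was -3.48 ± 1.24 in CD4+ T cells (limma adjusted p = 0.38) and -3.48 in CD8+ T cells (limma adjusted p = 0.326, or 0.0131 with both kidney CD4+ libraries left out). Slc16a6 was at 128 and 4.16 in kidney CD4+, 302 and 276 in kidney CD8+, 44.3 and 47.4 in spleen CD4+ and 123 and 136 in spleen CD8+ T cells. It was higher in CD8+ than in CD4+ T cells without overlap in either organ, but it shares its locus with Amz2 and Arsg on the opposite strand. The 5 members of the monocarboxylate list included 0 that passed in any of the 5 comparisons.

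Nucleoside, folate and phosphate carriers had the lowest median of the 9 role lists in both organ comparisons. Over 9 members the median log2 difference was -1.46 in CD4+ and -1.78 in CD8+ T cells, against -0.08 and 0.00 over all genes, and 0 of the 9 passed in either. Slc29a1, the equilibrative nucleoside carrier (mm9 chr17:45722149-45736555, minus strand) whose E-box window is shown above, was at 707 and 78.0 in kidney CD4+, 111 and 211 in kidney CD8+, 785 and 863 in spleen CD4+ and 391 and 437 in spleen CD8+ T cells. Kidney was below spleen without overlap in both cell types, although the kidney CD4+ replicates lay far apart. In CD8+ T cells the log2 difference was -1.43 ± 0.87 (limma adjusted p = 0.642, or 0.0274 with both kidney CD4+ libraries left out).

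Slc19a1, the reduced folate carrier, was at 54.3 and 17.7 in kidney CD4+, 1.70 and 33.1 in kidney CD8+, 163 and 117 in spleen CD4+ and 92.3 and 91.7 in spleen CD8+ T cells. Every kidney library was below every spleen library, with log2 differences of -2.12 ± 1.10 in CD4+ (limma adjusted p = 0.649) and -3.28 ± 1.10 in CD8+ T cells (limma adjusted p = 0.29). The phosphate carrier Slc20a1, also a receptor for some retroviruses, stood apart from this list at 137 and 109 in kidney CD4+, 160.4 and 203 in kidney CD8+, 89.2 and 50.04 in spleen CD4+ and 107 and 108 in spleen CD8+ T cells. Its kidney libraries were the higher ones in both cell types, with log2 differences of 0.86 ± 0.46 and 0.74 ± 0.46 (limma adjusted p = 0.665 and 0.655).

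Among carriers seen in spleen, a vesicle carrier had the smallest adjusted p of the CD8+ organ comparison once the kidney CD4+ libraries were left out. Slc17a9, which loads ATP into secretory vesicles (mm9 chr2:180459968-180476985, plus strand), was at 183 and 6.24 in kidney CD4+, 52.6 and 40.1 in kidney CD8+, 127 and 150.1 in spleen CD4+ and 180.4 and 264 in spleen CD8+ T cells. Its CD8+ log2 difference of -2.22 ± 1.22 had a limma adjusted p of 0.587 with all libraries and 0.00912 without the kidney CD4+ libraries. Slc11a2, the carrier of ferrous iron across plasma and endosomal membranes (mm9 chr15:100218329-100255503, minus strand), was at 196 and 65.6 in kidney CD4+, 53.5 and 75.5 in kidney CD8+, 131 and 97.5 in spleen CD4+ and 222 and 299.8 in spleen CD8+ T cells. Both kidney CD8+ libraries lay below both spleen CD8+ libraries, and the log2 difference was -2.00 (limma adjusted p = 0.193, or 0.0132 without the kidney CD4+ libraries). Slc17a9 is in none of the role lists and was named after its values were seen.

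Slc25a39, which imports glutathione into mitochondria (mm9 chr11:102264299-102269260, minus strand), was the 1 carrier seen in spleen that was called higher in kidney CD8+ T cells when the kidney CD4+ libraries were left out. Its levels were 65.5 and 408 in kidney CD4+, 188 and 205 in kidney CD8+, 80.9 and 55.2 in spleen CD4+ and 62.6 and 74.5 in spleen CD8+ T cells. The CD8+ log2 difference was 1.51 ± 0.77 (limma adjusted p = 0.553, or 0.0467 in that alternative). The remaining call was Slc24a5, an ion exchanger best known from pigment cells, named after its values were seen. It was listed at 38.1 and 0 in kidney CD4+, 0 and 0 in kidney CD8+, 2.22 and 1.73 in spleen CD4+ and 14.8 and 11.5 in spleen CD8+ T cells, and it overlaps Myef2. Slc24a5 could pass the filter only with the help of the spleen CD8+ libraries. Its gap between organs in CD8+ T cells is therefore part of how it was chosen, and nothing is read from its call.

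Mitochondrial carriers held the highest levels of all members. Per kilobase of transcript, the means over 8 libraries were 16646 for Slc25a5 and 1926 for Slc25a4, the ADP/ATP exchangers, 1002 for the sugar carrier Slc50a1 and 796 for the peroxisomal carrier Slc25a17. Slc25a5 was at 18308 and 23051 in kidney CD4+, 20062 and 23132 in kidney CD8+, 16634 and 18758 in spleen CD4+ and 22695 and 22487 in spleen CD8+ T cells. Slc25a4 was at 3127 and 3192 in kidney CD4+, 3136 and 4158 in kidney CD8+, 2980.0 and 3189 in spleen CD4+ and 4724 and 5149 in spleen CD8+ T cells. In spleen Slc25a4 was higher in CD8+ than in CD4+ T cells without overlap, by a log2 difference of 0.68 ± 0.33 (limma adjusted p = 0.869). Of 35 members of Slc25, 0 passed in either organ comparison, and the family's median log2 difference was 0.04 in CD4+ and -0.07 in CD8+ T cells.

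Single mitochondrial carriers lay apart between organs in CD8+ T cells without passing the test, in both directions, and the first 3 below were named after their values were seen. Slc25a1, the citrate carrier, was at 124 and 91.0 in kidney CD8+ and 26.3 and 20.1 in spleen CD8+ T cells (log2 difference 2.16, limma adjusted p = 0.302). Slc25a10, the dicarboxylate carrier, was at 104 and 303 against 21.5 and 52.5 (2.37, limma adjusted p = 0.274). Slc25a33, a mitochondrial pyrimidine nucleotide carrier, lay the other way, at 1.70 and 17.7 against 62.6 and 44.9 (-2.93, limma adjusted p = 0.248). Slc25a11, the oxoglutarate and malate carrier, overlapped between organs at 611 and 528 against 481 and 629.

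Zinc carriers of families Slc30 and Slc39 were all seen in spleen. The 17 members had a median log2 difference between organs of -0.33 in CD4+ and -0.39 in CD8+ T cells, and 0 passed in any comparison. Slc30a7, which fills the Golgi with zinc, was at 414 and 133 in kidney CD4+, 195 and 194 in kidney CD8+, 239 and 286 in spleen CD4+ and 201 and 269 in spleen CD8+ T cells. Slc39a7, which releases zinc from the endoplasmic reticulum, was at 431 and 212, 134 and 291, 331 and 266, and 207 and 353 in the same order. For Slc39a7 the organs overlapped in both cell types. The nucleotide sugar family Slc35 had 20 members with medians of -0.44 and -0.26, and 0 passed.

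**Figure D4:**
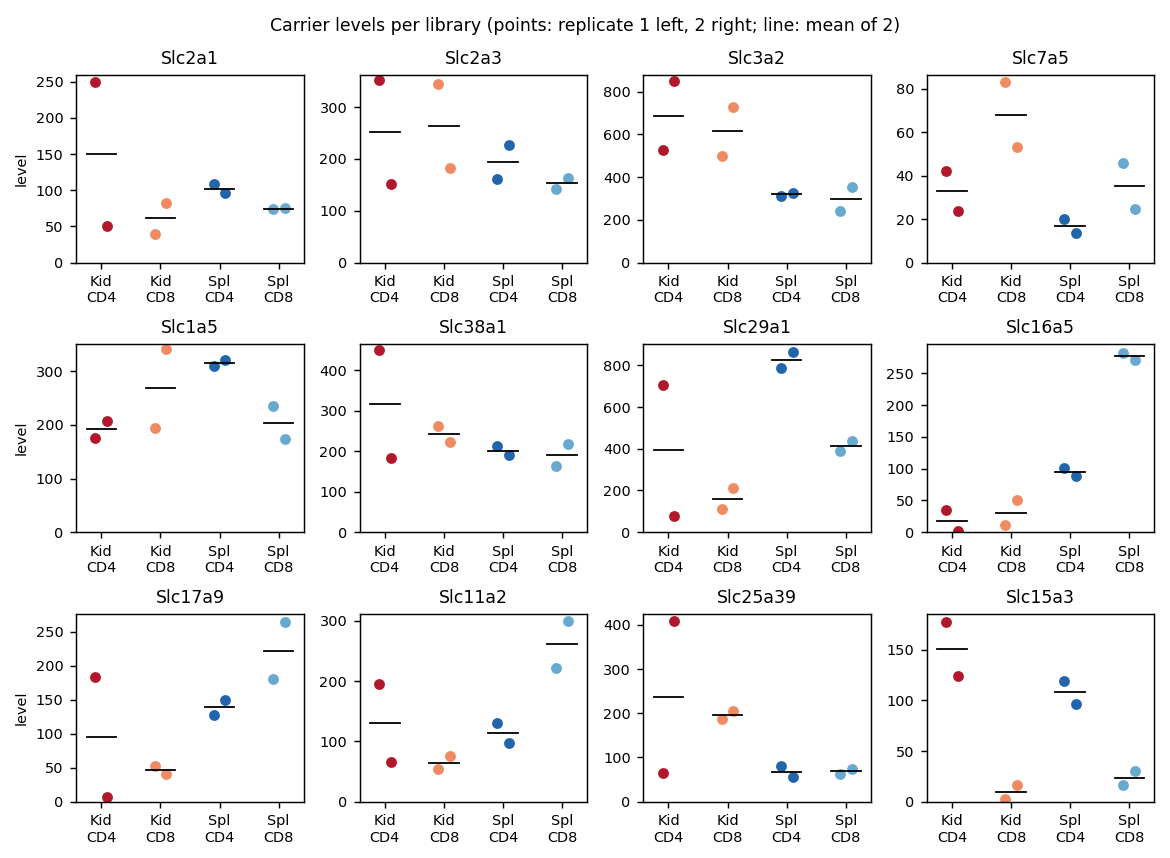
Level (linear axes from 0) of 12 named carriers in each library, by group, with replicate 1 at left, replicate 2 at right and a line at the mean of both. Slc3a2 lies higher in all 4 kidney libraries and Slc16a5 lower, while the kidney CD4+ replicates are far apart for Slc2a1, Slc29a1 and Slc17a9.

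CD8+ and CD4+ T cells were compared within each organ. In kidney 0 of 192 carriers passed in limma (15 at an unadjusted p under 0.05), with 0.203% of all genes called, and edgeR called 0 and DESeq2 3. In spleen 0 passed in limma (13 unadjusted), with 0.36% of all genes called, and edgeR called 0 and DESeq2 2. Leaving out a kidney CD4+ library raised the kidney count to 14 without replicate 1 and 19 without replicate 2, while 10.9% and 12.5% of all genes were called, a larger share than of the carriers. The spleen count rose to 1 and 2, with 2.98% and 2.91% of all genes called. Groups did not overlap for 49 carriers in kidney and 84 in spleen, against 27.9% and 45.7% of all genes. The organ difference in CD8+ T cells minus that in CD4+ T cells passed for 0 carriers in limma (6 unadjusted), while 0% of all genes were called. By edgeR and DESeq2 0 carriers passed too, and without replicate 1 of kidney CD4+ T cells 7 did, while 6.87% of all genes did, a larger share than of the carriers.

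Slc15a3, an endolysosomal carrier of histidine and small peptides (mm9 chr19:10914217-10933852, plus strand), lay lower in CD8+ than in CD4+ T cells in both organs. It was at 177 and 124 in kidney CD4+ and 2.55 and 16.2 in kidney CD8+ T cells, and at 119 and 96.6 in spleen CD4+ and 16.2 and 30.6 in spleen CD8+ T cells. Both organs kept the cell types apart. The log2 difference was -4.25 ± 0.81 in kidney (limma adjusted p = 0.111; DESeq2 adjusted p = 1.70e-04) and -2.22 ± 0.81 in spleen (limma adjusted p = 0.57). Without replicate 1 of kidney CD4+ T cells the limma adjusted p in kidney was 0.035, and without replicate 2 it was 0.0249.

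Slc11a1, the metal carrier of phagocyte lysosomes, was at 37.4 and 1.04 in kidney CD4+, 1.70 and 9.25 in kidney CD8+ and 33.8 and 23.3 in spleen CD4+ T cells, with 0 reads in spleen CD8+ T cells. Its spleen difference had a limma adjusted p of 0.364, and 0.0432 with both kidney CD4+ libraries left out. Slc11a1 could pass the filter only with the help of the spleen CD4+ libraries. Its gap between cell types in spleen is therefore part of how it was chosen, and nothing is read from these p-values. Slc48a1, which moves heme out of lysosomes, was at 185 and 116 in kidney CD4+, 15.3 and 67.8 in kidney CD8+, 107 and 67.3 in spleen CD4+ and 45.1 and 14.3 in spleen CD8+ T cells. For these carriers the CD4+ libraries of spleen lay above the CD8+ ones. The full list of 12 lysosomal and endosomal carriers went both ways. In spleen 5 were higher and 7 lower in CD8+ T cells, with a median log2 difference of -0.12. Kidney also gave 5 higher and 7 lower, with a median of -0.19. The summed level of all 8 listed macrophage markers was 6825 and 6519 in kidney CD4+ and 2353 and 1787 in kidney CD8+ T cells. In spleen it was 1679 and 2263 in CD4+ and 838 and 1446 in CD8+ T cells. Adgre1 was at 0 in both spleen CD8+ libraries, as was Mrc1, while C1qb had reads in every library. Single markers did not all follow the sum. Lyz2 overlapped in spleen, at 776 and 1371 in CD4+ and 443 and 976 in CD8+ T cells. Cd68 was at 258 and 485 in kidney CD4+ and 485 and 389 in kidney CD8+ T cells. The part of macrophage RNA in the carrier levels was not tested.

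Slc7a7, the basolateral carrier of cationic amino acids, was at 31.0 and 27.1 in kidney CD4+, 13.6 and 54.0 in kidney CD8+, 18.3 and 41.4 in spleen CD4+ and 3.37 and 2.86 in spleen CD8+ T cells. The spleen CD8+ libraries were the low ones, and the organ difference in CD8+ T cells was 2.78 ± 0.87 on the log2 scale (limma adjusted p = 0.237). Slc7a7 overlaps Oxa1l on the opposite strand.

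Slc16a13, a monocarboxylate carrier in none of the role lists and named after its values were seen, had 0 reads in both kidney CD4+ libraries and 50.1 and 20.04 in kidney CD8+ T cells. In spleen it was at 10.5 and 19.8 in CD4+ and at 20.2 and 12.4 in CD8+ T cells. The difference between cell types in kidney had a limma adjusted p of 0.0994 and a DESeq2 adjusted p of 0.00215, and in spleen the cell types overlapped. In limma it was 0.0163 without replicate 1 of kidney CD4+ T cells and 0.0211 without replicate 2. Slc12a2, the sodium, potassium and chloride cotransporter that sets cell volume, was also named after its values were seen. It was at 90.2 and 67.6 in kidney CD4+ and 12.7 and 14.6 in kidney CD8+ T cells, against 32.1 and 11.2 and 24.2 and 20.1 in spleen. Its kidney difference was -2.43 ± 0.71 on the log2 scale, with a limma adjusted p of 0.346.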

How the data were processed

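The deposited table gives, per the labels, normalised counts on the mm9 build. Its deposited values are treated as a signal: how the authors normalised them is not given in the sources used here, but the values are those of read counts divided by 1 factor per library. The submitters' processing notes name STAR 2.5.3 and TopHat2 2.1.0, and the counting tool is not given in the sources used here. Every value was a whole multiple of a library's step (100% within 1e-06), so whole reads were recovered, with 7477544 to 11169003 reads per library. Members needed a level of 10 or more in 2 libraries, as did all 10845 genes tested.

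Log2(level + 1) was fitted with limma 3.58.1 in R 4.3.3 over all 8 libraries, with group as the only term, Benjamini-Hochberg adjustment over all tested genes and a threshold of 0.05. The fold changes are on the log2(value + 1) scale, which understates changes of low genes. On the recovered reads, edgeR 4.0.16 called 66 genes in the CD4+ and 99 in the CD8+ organ comparison, and DESeq2 1.42.0 called 352 and 492. Scripts were tested on simulated data. Positions came from an mm9 annotation, and promoters from RefSeq (GRCm38.p6).

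Members and lists were chosen with earlier results of these data known. Carriers named were Slc2a1, list members, up to 8 calls per direction and comparison, the 10 highest per class and 3 on either side of the spleen threshold, and others are marked as named after their values were seen. Intervals are 95% limits from the limma fit, and floors of 3 reads cover counting error only. Replicate numbers were not treated as pairs. A carrier and a marker gene are not reported here.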

Additional observations from a re-analysis of the deposited data

How the results depend on the processing

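Counts of called carriers moved with the processing, and the cause was not tested beyond what each change leaves out. For the organ comparison in CD4+ T cells (1 in limma), edgeR called 0, DESeq2 13 (3.25% of all genes; 10 of the 13 in the class chosen for low spleen values), median-of-ratios scaling 2, no filter on low values 3, the 4 compared libraries alone 0, and leaving out 1 library 0 to 39 (0.138% to 21.5% of all genes). In CD8+ T cells (3 in limma), edgeR called 0, DESeq2 14 (4.54% of all genes; 9 of the 14 in that class), a pseudocount of 5 gave 1, the 4 compared libraries alone 1, both kidney CD4+ libraries left out 17, and leaving out 1 library 0 to 17 (0.194% to 6.8% of all genes). For CD8+ against CD4+ T cells in kidney (0 in limma), DESeq2 called 3 (1.99% of all genes) and leaving out 1 library 0 to 19 (0.0277% to 12.5%). In spleen (0 in limma), DESeq2 called 2 (2.16% of all genes), the 4 compared libraries alone 2, both kidney CD4+ libraries left out 2, and leaving out 1 library 0 to 2. The difference between organ effects gave 0 to 7 when 1 library was left out. Leaving out both kidney CD4+ libraries was chosen after seeing the data. Across groups, the correlation over genes of replicate 1 minus replicate 2 ran from -0.15 to 0.06. Each group gives only 1 such difference, which also carries library noise. It therefore cannot show whether same-numbered libraries share a mouse or a batch, and the labels do not say. With the replicate number as a block, 0 carriers were called in the CD4+ and 0 in the CD8+ organ comparison.

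The number of carriers low in spleen was 32. It was 4 with the minimum scaled to library totals, which is also a higher minimum (74.8 to 112 reads a library in place of 9.61 to 18.04), 57 with a level of 10 in at least 1 library, 19 with at least 3, and 21 to 35 when 1 library was left out (21 without replicate 2 of kidney CD8+ T cells). The log2 difference of Slc2a1 changed sign in 4 comparisons when 1 library was left out. It ran from -0.98 to 1.29 for CD4+ organs, from 0.17 to -2.10 for kidney cell types and from 0.61 to -1.66 for the difference of organ effects (the first value without replicate 1 and the second without replicate 2 of kidney CD4+ T cells), and from 0.14 to -0.89 for CD8+ organs (without replicate 1 and 2 of kidney CD8+ T cells). Slc6a19 stayed positive in all 15 alternatives and passed in 8. It could pass the filter only through the kidney libraries, so its sign is part of how it was chosen. Nothing is read from that stability. With 2 libraries a group, levels near 10 rest on few reads.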

Other observations

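Carriers used by red cell precursors were compared with erythroid markers, whose summed level (5 of 8 listed genes in the table) was 7307 to 13188 in spleen and 8.46 to 169.6 in kidney libraries. Alas2 was at 0 in all kidney libraries and at 69.9 to 145 in spleen. Klf1 was at 0 in every library except replicate 1 of spleen CD4+ T cells, at 0.554, so it tells nothing about the organs. The carrier list had 5 members of 6 in the table, and 0 passed in either organ comparison by limma (0 at an unadjusted p under 0.05). In each comparison 1 member was higher and 4 were lower in kidney. The median log2 differences were -0.38 in CD4+ and -0.52 in CD8+ T cells. In CD8+ T cells 2 members did not overlap between organs, 1 of them higher in kidney, where all genes gave 51.1%. Slc25a37, which imports iron into mitochondria for heme, was at 50.04 and 19.8 in kidney CD4+, 18.7 and 13.9 in kidney CD8+, 58.2 and 29.3 in spleen CD4+ and 46.5 and 30.6 in spleen CD8+ T cells. Slc40a1, the iron exporter ferroportin, was at 0 and 12.5 in kidney CD4+, 0 and 24.7 in kidney CD8+, 89.2 and 18.98 in spleen CD4+ and 15.5 and 7.64 in spleen CD8+ T cells. Slc4a1, the red cell anion exchanger, reached at most 4.04 in any library and was no member. The part of erythroid RNA in these carriers was not tested.

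Carriers were also grouped by transcript length between the kidney CD4+ replicates. Among those seen in spleen, the median log2 ratio of replicate 1 to replicate 2 was -0.11 for 21 carriers with transcripts up to 2000 nt, 1.56 for 41 between 2000 and 3000 nt, and 0.81 for 90 above 3000 nt. For carriers low in spleen it was -1.85 (4 carriers), 0.00 (11) and -0.81 (16) in the same classes. This is a description across genes, with no test.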
